A study of Mus musculus with 12 samples.

Results

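Hedgehog signalling and the forkhead factors of the gut stroma were followed in cultured intestinal fibroblasts through 9 genes, of 25203 genes in the table: Gli1, Gli2, Gli3, Ptch1, Smo, Hhip, Foxf1, Foxf2 and Foxl1. They were taken by their gene symbols, and each symbol had 1 row. The set was chosen with earlier results of these data known. The cells were primary mouse mesenchyme cultures, described as Pdgfra-lo cells with an H2B-GFP reporter, and RNA was sequenced from 12 libraries in 4 groups of 3. The groups, named as in the labels, were TGFB1_KO (Tgfbr2KO cells with TGFB1 added), Vehicle_Tgfbr2KO (Tgfbr2KO cells with vehicle), TGFB1 (cells not labelled knockout, with TGFB1 added) and Vehicle (the same kind of cells with vehicle). Tgfbr2 encodes the type II receptor of TGF-beta, and the stated purpose was to see how TGF-beta activity acts on stromal fibroblasts and, through the Tgfbr2KO cells, whether TGFB1 acts by other routes. The TGFB1 dose, its time, the strain and age of the mice and the way Tgfbr2 was removed are not given in the sources used here. Nor do the labels say that the 3 libraries of a group came from separate animals, so every p-value below measures the spread between libraries, which may be technical.

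In the gut, Hedgehog ligands are made by the epithelium and received by the stroma beneath it. The receptor Ptch1 holds back the membrane protein Smo until ligand binds, and Smo then acts through the cilium on Gli2 and Gli3, transcription factors that can be cut to repressor forms, while Gli1 is an activator that is itself a target. Ptch1 and Hhip, a membrane protein that binds ligand, are further targets that limit the signal, and Foxf1, Foxf2 and Foxl1 are forkhead transcription factors of the gut mesenchyme placed downstream of it. Foxl1 also marks a population of subepithelial stromal cells called telocytes.

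Promoter windows in the RefSeq table (build GRCm38.p6) matched 6 of the 9 genes, and 3 are printed because they set the member whose RNA moved most, Gli2, beside its paralog Gli3, which did not pass in any comparison as fitted here, and beside the receptor Ptch1. Each is the 250 bases before the start of the gene, 5′ to 3′ on the gene's strand, and capitals mark the pentamer CAGAC or, on the other strand, GTCTG, a short letter pattern of SMAD proteins, which carry TGF-beta signals. The Gli2 window is chr1:119053620-119053869 on the minus strand, the Gli3 window chr13:15463473-15463722 on the plus strand and the Ptch1 window chr13:63565736-63565985 on the minus strand.
Gli2: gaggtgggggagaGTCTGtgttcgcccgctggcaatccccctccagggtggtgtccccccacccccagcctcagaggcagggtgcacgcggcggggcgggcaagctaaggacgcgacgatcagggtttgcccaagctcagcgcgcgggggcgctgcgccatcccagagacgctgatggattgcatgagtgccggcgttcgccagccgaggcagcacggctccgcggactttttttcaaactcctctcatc
Gli3: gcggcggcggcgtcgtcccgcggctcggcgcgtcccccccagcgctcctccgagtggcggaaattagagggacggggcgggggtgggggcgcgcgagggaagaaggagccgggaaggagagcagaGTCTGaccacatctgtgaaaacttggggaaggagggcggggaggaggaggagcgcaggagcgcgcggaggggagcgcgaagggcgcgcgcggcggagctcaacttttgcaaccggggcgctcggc
Ptch1: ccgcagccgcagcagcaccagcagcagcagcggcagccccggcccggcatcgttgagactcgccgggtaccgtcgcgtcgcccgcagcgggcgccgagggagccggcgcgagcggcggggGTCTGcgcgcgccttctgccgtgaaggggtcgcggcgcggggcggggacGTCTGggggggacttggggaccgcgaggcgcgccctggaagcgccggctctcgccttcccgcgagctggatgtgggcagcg
The pentamer was found 1 time in the Gli2 window, 237 bases before the start, 1 time in the Gli3 window and 2 times in the Ptch1 window. It also occurred 1 time in the Smo window and not in those of Hhip and Foxf2, so 4 of the 6 windows held it, and 42.2% of all 32851 windows of the same length did. The Gli motif TGGGTGG, on either strand, was in none of the 6 windows and in 8.11% of all, and the forkhead motif TGTTTAC was in none of the 6 and in 3.17% of all. The letters G and C made up 67.2% (Gli2) to 78.4% (Ptch1) of the 6 windows, beside a median of 52.4% over all windows. The shares over all windows are therefore not a like background. These are matches of letters in 1 short window per gene, and the pentamer is present in both the Gli2 and the Gli3 window.

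Levels are given in FPKM, a fragment count scaled for transcript length and library size. Read counts were not used here, so absolute depth is unknown. Relative depth, read from the steps between low values with Vehicle replicate 1 set to 1, was 0.803 to 1.24 in TGFB1_KO, 0.861 to 1.02 in Vehicle_Tgfbr2KO, 0.745 to 0.798 in TGFB1 and 0.963 to 1.04 in Vehicle libraries. It depends on how the deposited values were scaled and need not follow the total of reads. The FPKM sums were highest in the TGFB1 libraries, at 551457 to 569510. Tgfbr2 itself was listed at 31.6, 38.0 and 62.4 FPKM in TGFB1_KO and at 27.0, 35.2 and 41.9 FPKM in Vehicle_Tgfbr2KO libraries, against 56.5, 70.6 and 74.6 FPKM in TGFB1 and 48.0, 38.2 and 78.8 FPKM in Vehicle libraries. Those ranges overlap, and a value over the whole gene does not show whether an exon is missing, so the level of Tgfbr2 does not check the knockout label. All 12 fibroblast and all 10 smooth muscle and pericyte markers reached 1 FPKM, as did all 10 leukocyte markers, 7 of 8 epithelial and all 6 endothelial markers in at least 1 library. Of 6 telocyte markers other than Foxl1, 3 were expressed (F3 at 228 to 446 FPKM, Wnt5a at 14.9 to 38.9 and Nrg1 at 6.60 to 18.7 FPKM) and Bmp5, Bmp7 and Sox6 stayed below 1 FPKM everywhere. Of 8 markers of enteric glia and neurons Uchl1 alone reached 1 FPKM, at 17.4 to 80.7 FPKM, and of 3 markers of interstitial cells of Cajal Etv1 reached 6.50 and Ano1 1.77 FPKM while Kit stayed below 1. Among the epithelial markers Krt8, Krt18 and Krt19 reached 25.8, 21.8 and 13.9 FPKM in their highest library, and Vil1 stayed below 1.

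Of the 9 genes, 6 were tested, the rule being that 3 or more of the 12 libraries hold 1 FPKM or more. By mean level, Foxf1, Smo and Foxf2 stood highest, followed by Gli3, Ptch1 and Gli2, and Gli1, Hhip and Foxl1 did not reach 1 FPKM in any library. Differences were tested with limma on log2(FPKM + 1), fitted to all 12 libraries, with p-values adjusted by Benjamini and Hochberg over all 12641 tested genes; a gene passed at an adjusted p under 0.05. Changes of weakly expressed genes come out smaller on this scale than as folds. Folds are ratios of group mean FPKM.

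**Figure D1:**
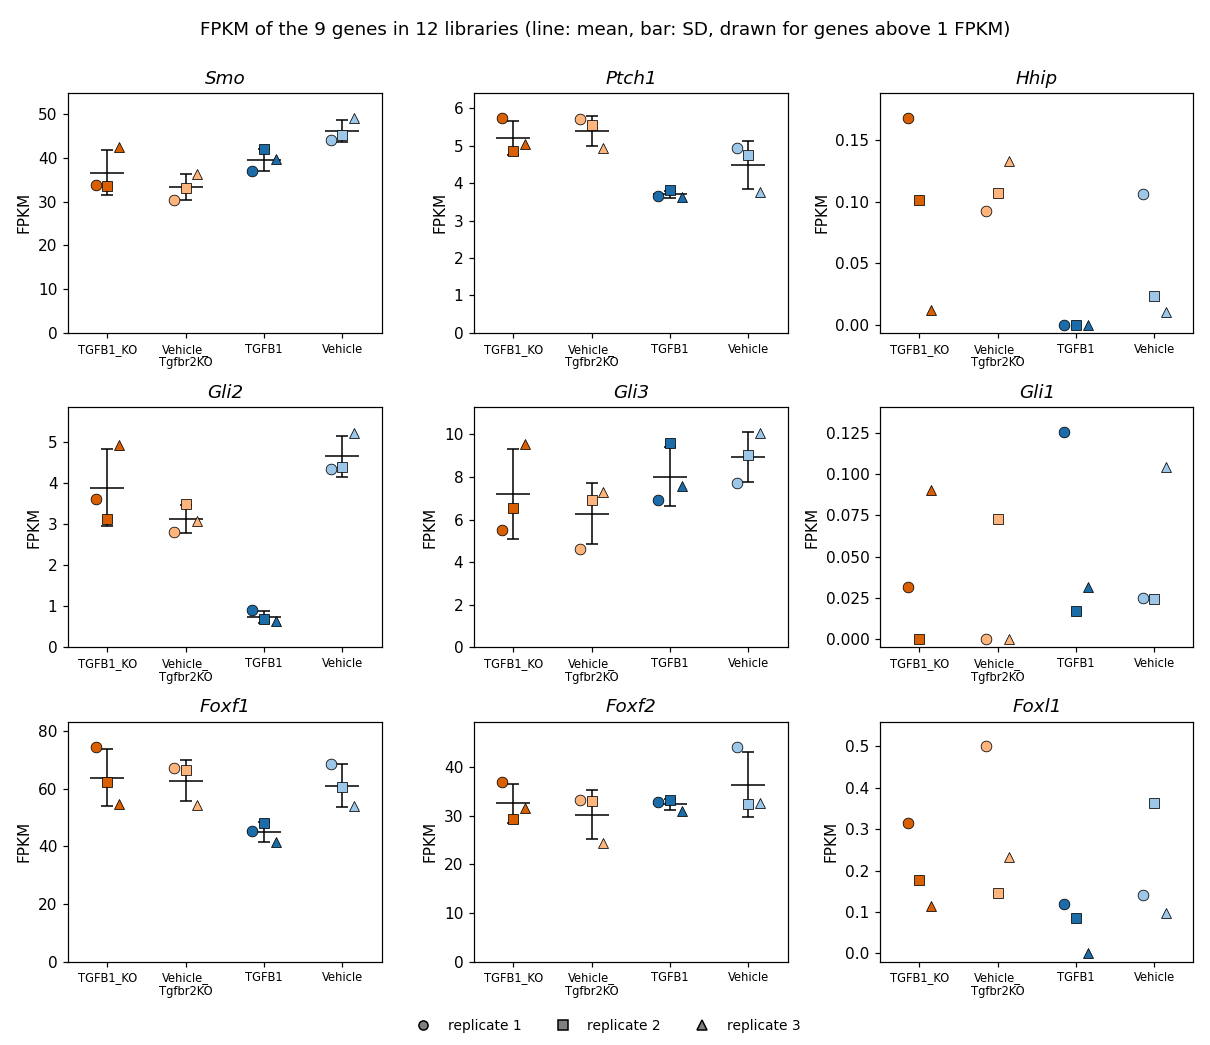
FPKM of the 9 genes (vertical axes, each from its own scale) in the 3 libraries of each group (horizontal axes); points are libraries, shapes are replicate numbers, and lines with bars are means with SD, drawn for the 6 genes that reach 1 FPKM. The 3 TGFB1 libraries sit between 0.633 and 0.901 FPKM for Gli2, below every other library, and between 41.3 and 48.1 FPKM for Foxf1, also below every other library.

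Gli2 had the largest response to TGFB1 among the 6 tested genes. Gli2 encodes the main transcriptional activator among the Hedgehog effectors. Its level was 0.901, 0.689 and 0.633 FPKM in the TGFB1 libraries, against 4.34, 4.39 and 5.23 FPKM in the Vehicle libraries. All 3 TGFB1 libraries were below all 3 Vehicle libraries, with a mean of 0.741 ± 0.142 FPKM in TGFB1 and 4.65 ± 0.495 FPKM in Vehicle (SD, n = 3 each), 6.28-fold lower with TGFB1. On the log2 scale Gli2 fell by 1.70 (SE 0.14, 95% interval -2.002 to -1.396, limma adjusted p = 1.80e-05), rank 111 of the 12641 tested genes by p-value. In Tgfbr2KO cells Gli2 stood at 3.61, 3.13 and 4.94 FPKM with TGFB1, against 2.81, 3.496 and 3.07 FPKM with vehicle. Those groups overlap, and the change of 0.23 (95% interval -0.07 to 0.53, limma adjusted p = 0.738) did not pass. The change with TGFB1 in Tgfbr2KO cells minus that in the other cells, tested as an interaction, was 1.93 on the log2 scale for Gli2 (SE 0.19, limma adjusted p = 0.000191). Gli2 kept its calls in TGFB1 minus Vehicle and in the interaction in every alternative run, without any 1 library included. In these bulk libraries, fewer cells that express a gene and less RNA per cell cannot be told apart.

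Other values moved with the same groups. The summed level of the 10 smooth muscle and pericyte markers was 4162 to 6478 FPKM in TGFB1_KO, 5143 to 5625 in Vehicle_Tgfbr2KO, 8263 to 9329 in TGFB1 and 5206 to 6451 FPKM in Vehicle libraries. For the 3 markers of interstitial cells of Cajal the sum, which came mostly from Etv1 and Ano1, was 5.53 to 7.86 FPKM in TGFB1_KO, 5.06 to 5.79 in Vehicle_Tgfbr2KO, 1.01 to 1.35 in TGFB1 and 4.99 to 5.51 FPKM in Vehicle libraries. The 12 fibroblast markers summed to 4778 to 9498 FPKM in TGFB1_KO, 3840 to 5451 in Vehicle_Tgfbr2KO, 12608 to 13919 in TGFB1 and 7110 to 12241 FPKM in Vehicle libraries. The TGFB1 libraries thus had the highest sums of smooth muscle and of fibroblast markers and the lowest for interstitial cells of Cajal. Such sums follow their most abundant genes. Of the fibroblast markers, Fn1 ranged from 793 to 4496 FPKM and Col1a1 from 845 to 4291. Lum ranged from 0.855 to 38.5, Dpt from 0.0397 to 8.13 and Pdgfra, by which the cells were described, from 12.1 to 195 FPKM. Each is a range over all libraries and does not show in which group a marker was high. Of the smooth muscle markers, Tagln ranged from 1179 to 3342 FPKM and Des from 0.584 to 7.04. Whether the mix of cell types differed was not tested. The enteric glia and neuron sum, nearly all of it Uchl1, was 18.4 to 38.2 FPKM in TGFB1_KO, 35.5 to 41.5 in Vehicle_Tgfbr2KO, 67.0 to 81.1 in TGFB1 and 22.3 to 36.0 FPKM in Vehicle libraries, so the TGFB1 libraries were the highest there too. Epithelial markers summed to 6.82 to 29.9 FPKM in TGFB1_KO, 8.88 to 66.8 in Vehicle_Tgfbr2KO, 4.56 to 7.76 in TGFB1 and 6.15 to 9.58 FPKM in Vehicle libraries. Leukocyte markers overlapped between all groups, at 203 to 400 FPKM in TGFB1_KO, 326 to 491 in Vehicle_Tgfbr2KO, 14.6 to 346 in TGFB1 and 39.7 to 678 FPKM in Vehicle libraries. The part of these levels, and of the lower relative depth of the TGFB1 libraries, in the fall of Gli2 or of any other gene was not tested.

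Gli3, the paralog that acts mostly as a repressor, was listed at 5.51, 6.56 and 9.56 FPKM in TGFB1_KO, 4.63, 6.92 and 7.29 in Vehicle_Tgfbr2KO, 6.90, 9.57 and 7.55 in TGFB1 and 7.70, 9.04 and 10.1 FPKM in Vehicle libraries. Its TGFB1 and Vehicle libraries overlap, and so do its TGFB1_KO and Vehicle_Tgfbr2KO libraries. The log2 change of Gli3 was -0.15 in TGFB1 minus Vehicle (95% interval -0.59 to 0.30, limma adjusted p = 0.626), so a fall to about the size of that of Gli2 lies outside its interval.

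The balance of Gli2 and Gli3 was followed as a ratio within each library. The FPKM ratio of Gli2 over Gli3 was 0.550 ± 0.0939 in TGFB1_KO, 0.511 ± 0.0928 in Vehicle_Tgfbr2KO, 0.0954 ± 0.0310 in TGFB1 and 0.523 ± 0.0392 in Vehicle libraries (SD, n = 3 each). Every TGFB1 library was below 0.131 and every other library above 0.421. Gli2 made up 35.2 ± 3.77% of the summed Gli FPKM in TGFB1_KO, 33.6 ± 4.06% in Vehicle_Tgfbr2KO, 8.59 ± 2.45% in TGFB1 and 34.2 ± 1.69% in Vehicle libraries (SD, n = 3 each). The log2 ratio differed by -2.50 in TGFB1 minus Vehicle and by 2.56 in TGFB1_KO minus TGFB1, each with a two-sided exact permutation p = 0.1, the smallest that 3 libraries against 3 allow (0.171 adjusted over the 12 ratio tests made).

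**Figure D2:**
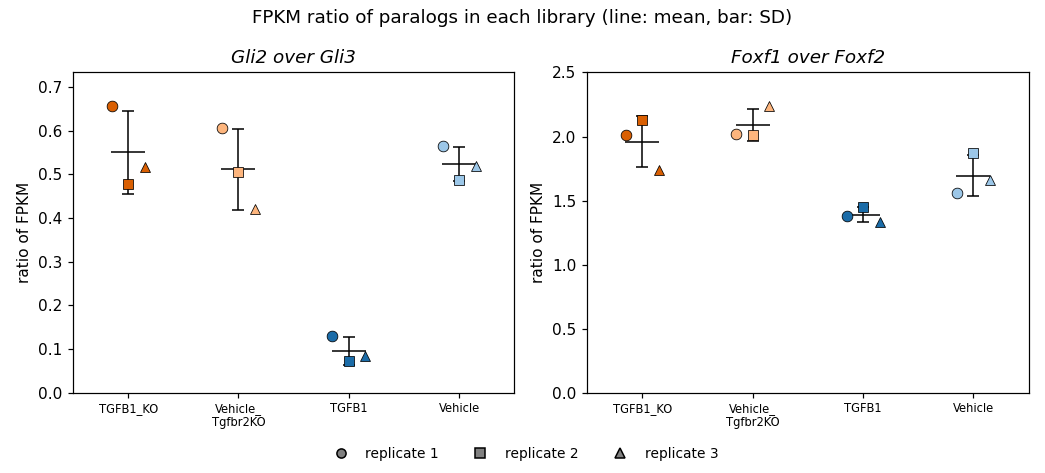
FPKM ratio of Gli2 over Gli3 (left) and of Foxf1 over Foxf2 (right), a point per library, with the mean and SD of each group of 3; shapes are replicate numbers. The TGFB1 libraries have the lowest ratios in both panels, 0.0720 to 0.131 for Gli2 over Gli3 and 1.33 to 1.45 for Foxf1 over Foxf2.

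Gli1, the Gli gene most often read as an output of the pathway, was at the edge of detection. It was listed at 0.0312, 0 and 0.0901 FPKM in TGFB1_KO, 0, 0.0730 and 0 in Vehicle_Tgfbr2KO, 0.126, 0.0168 and 0.0316 in TGFB1 and 0.0251, 0.0240 and 0.104 FPKM in Vehicle libraries. The highest value was in a TGFB1 library, 3 libraries were listed at 0, and all 4 groups overlap. After scaling by relative depth, all 9 non-zero Gli1 values were whole multiples, up to 8 times, of the smallest, within 0.1, so each rests on very few reads. Gli1 exons overlap those of Arhgap9 on the opposite strand (mean 0.807 FPKM), and the sources used here do not say that counting used strand, so even these few reads are uncertain.

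At the membrane, Smo, the signal transducer, was listed at 33.8, 33.5 and 42.6 FPKM in TGFB1_KO, 30.3, 33.2 and 36.4 in Vehicle_Tgfbr2KO, 37.0, 42.0 and 39.7 in TGFB1 and 44.1, 45.3 and 49.0 FPKM in Vehicle libraries. The 3 Vehicle libraries were the highest of all 12. Smo was 14.2% lower in TGFB1 than in Vehicle libraries, a log2 change of -0.22 (SE 0.10) that did not pass (limma adjusted p = 0.127) and that passed with the replicate number as a block within each genotype (limma adjusted p = 0.0291). The Smo interaction was 0.35 (SE 0.14), with a limma adjusted p of 0.120, or 0.0263 with that block. In Vehicle_Tgfbr2KO minus Vehicle the log2 change of Smo was -0.46 (SE 0.10), which did not pass (limma adjusted p = 0.0565).

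Ptch1, both receptor and target, was listed at 5.73, 4.85 and 5.05 FPKM in TGFB1_KO, 5.70, 5.54 and 4.95 in Vehicle_Tgfbr2KO, 3.65, 3.81 and 3.63 in TGFB1 and 4.94, 4.76 and 3.76 FPKM in Vehicle libraries. Vehicle replicate 3 lay inside the TGFB1 range, and the other Vehicle libraries lay above it. Ptch1 averaged 3.70 ± 0.101 FPKM in TGFB1 and 4.49 ± 0.638 FPKM in Vehicle libraries (SD, n = 3 each), a log2 change of -0.22 (SE 0.09) that did not pass (limma adjusted p = 0.109) and that passed without Vehicle replicate 3 (limma adjusted p = 0.0212). Between genotypes under TGFB1 the groups did not overlap: Ptch1 was 1.41-fold higher in TGFB1_KO than in TGFB1 libraries, by 0.40 on the log2 scale (SE 0.09, limma adjusted p = 0.00853). The Ptch1 interaction of 0.17 (SE 0.13) did not pass (limma adjusted p = 0.405), so a difference between genotypes in the response of Ptch1 to TGFB1 is not shown.

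Hhip, the decoy receptor, was listed at 0.168, 0.101 and 0.0116 FPKM in TGFB1_KO, 0.0925, 0.107 and 0.133 in Vehicle_Tgfbr2KO, 0, 0 and 0 in TGFB1 and 0.106, 0.0231 and 0.00999 FPKM in Vehicle libraries. It was at 0 in all 3 TGFB1 libraries and in no other library, but its levels elsewhere were too low to be tested. The TGFB1 libraries also had the lowest relative depth as read from the steps between low values, at 0.745 to 0.798, and no fold is given.

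Among the forkhead genes Foxf1 was lower with TGFB1 and Foxf2 did not pass. Foxf1 was listed at 45.2, 48.1 and 41.3 FPKM in TGFB1 libraries, against 68.5, 60.6 and 53.9 FPKM in Vehicle libraries. The groups do not overlap, and Foxf1 was 26.5% lower with TGFB1, a fall of 0.43 on the log2 scale (SE 0.13, 95% interval -0.72 to -0.15, limma adjusted p = 0.0269). This call was near the threshold: the limma adjusted p was 0.0959 without Vehicle replicate 1, 0.0652 without Vehicle replicate 2, 0.0666 without TGFB1 replicate 1 and 0.0948 without TGFB1 replicate 3. In Tgfbr2KO cells Foxf1 stood at 74.3, 62.3 and 54.8 FPKM with TGFB1, against 67.2, 66.5 and 54.4 FPKM with vehicle, ranges that overlap almost wholly. There the log2 change was 0.02 (95% interval -0.27 to 0.30, limma adjusted p = 0.970). The Foxf1 interaction was 0.45 (SE 0.18), with a limma adjusted p of 0.115, or 0.0172 with the replicate number as a block within each genotype.

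Foxf2 was listed at 37.0, 29.2 and 31.5 FPKM in TGFB1_KO, 33.3, 33.0 and 24.3 in Vehicle_Tgfbr2KO, 32.7, 33.1 and 30.998 in TGFB1 and 44.0, 32.4 and 32.5 FPKM in Vehicle libraries. All 4 groups overlap, and the log2 change in TGFB1 minus Vehicle was -0.15 (95% interval -0.48 to 0.17, limma adjusted p = 0.471). The FPKM ratio of Foxf1 over Foxf2 was 1.96 ± 0.199 in TGFB1_KO, 2.09 ± 0.127 in Vehicle_Tgfbr2KO, 1.39 ± 0.0596 in TGFB1 and 1.70 ± 0.159 in Vehicle libraries (SD, n = 3 each). All 3 TGFB1 libraries had a lower ratio than all 3 Vehicle libraries, with a two-sided exact permutation p = 0.1, again the smallest possible (0.171 adjusted over the 12 ratio tests).

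Foxl1, the telocyte factor, was listed at 0.315, 0.178 and 0.114 FPKM in TGFB1_KO, 0.4997, 0.147 and 0.233 in Vehicle_Tgfbr2KO, 0.119, 0.0848 and 0 in TGFB1 and 0.142, 0.363 and 0.0985 FPKM in Vehicle libraries. The 2 lowest values were in TGFB1 libraries, but these overlap the Vehicle libraries, and Foxl1 was not tested at this level. It lies near Foxf1 on chromosome 8 in the GENCODE annotation, in the order Irf8, Fendrr, Foxf1, Mthfsd, Foxc2, Foxl1.

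Fendrr, a long non-coding RNA gene next to Foxf1 on the opposite strand, moved with Foxf1 and by more. Its level was 6.93, 7.17 and 7.14 FPKM in TGFB1_KO, 8.75, 8.47 and 6.16 in Vehicle_Tgfbr2KO, 3.08, 3.37 and 2.41 in TGFB1 and 8.31, 8.28 and 7.27 FPKM in Vehicle libraries. Every TGFB1 library was below every other library. Fendrr fell by 1.19 on the log2 scale in TGFB1 minus Vehicle (SE 0.13, limma adjusted p = 8.97e-05), and its interaction was 1.08 (SE 0.18, limma adjusted p = 0.00300). Of the 8 listed neighbours of the forkhead genes, all tested, Fendrr alone passed in TGFB1 minus Vehicle, where 31.9% of all tested genes passed. Exoc2, Mthfsd and Gmds, the 3 of highest mean, did not (log2 changes 0.17, -0.10 and -0.02, limma adjusted p = 0.0524, 0.267 and 0.878). The median log2 change of the 8 was -0.01, beside 0.02 over all tested genes.

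**Figure D3:**
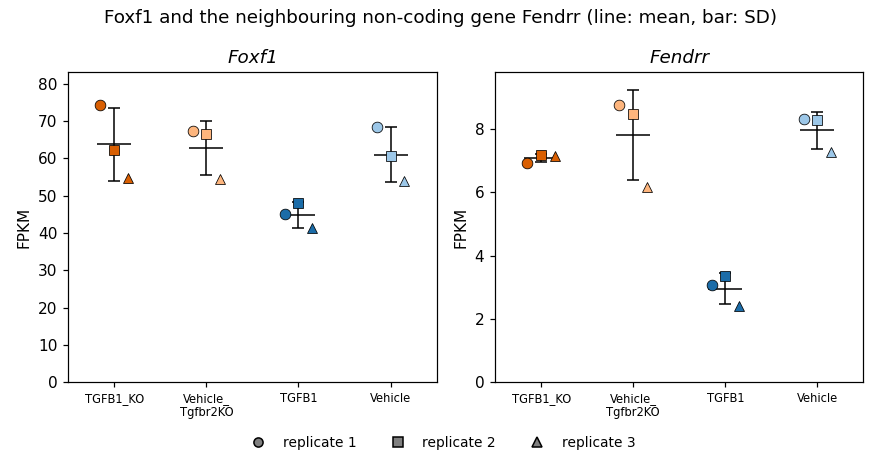
FPKM (vertical axes) of Foxf1 (left) and of the neighbouring gene Fendrr (right) in each library, by group; lines with bars are means with SD of 3 libraries. In the TGFB1 group Foxf1 lies between 41.3 and 48.1 FPKM and Fendrr between 2.41 and 3.37 FPKM, below every other library in both panels.

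Counted over the 6 tested genes, 2 (Gli2 and Foxf1) passed in TGFB1 minus Vehicle, where 31.9% of all tested genes passed, and both were lower, as were 14.6% of all tested genes. None was higher, against 17.3% of all. With library sums made equal instead, Smo and Ptch1 passed as well (limma adjusted p = 0.0350 and 0.0200), and of all genes called 1169 were higher and 2794 lower, against 2184 higher and 1849 lower as deposited; that scaling shifts the median log2 change of all genes by -0.12. In TGFB1_KO minus Vehicle_Tgfbr2KO none of the 6 passed, and neither did any tested gene (0%), while 748 of the 12641 had an unadjusted limma p under 0.05; of the 6, the change of Smo was 0.13, that of Gli3 0.16, that of Foxf2 0.11 and that of Ptch1 -0.04. Such a count does not show that the genes stayed the same. The intervals of these 6 changes reach 0.17 (Ptch1) to 0.61 (Gli3) on the upper side. On the lower side they reach -0.07 (Gli2) to -0.28 (Gli3).

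Between the genotypes without TGFB1, none of the 6 passed in Vehicle_Tgfbr2KO minus Vehicle, where 1.24% of all tested genes did, 0.522% higher and 0.72% lower. The log2 changes there were -0.46 for Smo, -0.45 for Gli2 (limma adjusted p = 0.115) and -0.46 for Gli3 (0.215). Those of Ptch1, Foxf2 and Foxf1 were 0.23, -0.26 and 0.04 (limma adjusted p = 0.201, 0.321 and 0.882). Of all 12641 tested genes, 2769 had an unadjusted limma p under 0.05 in that comparison. Without TGFB1_KO replicate 3, which is in neither group but enters the shared estimate of spread, Smo and Gli2 passed (limma adjusted p = 0.0192 and 0.0409). Under TGFB1, 3 of the 6 passed in TGFB1_KO minus TGFB1 (33.9% of all tested genes), all higher (15.6% of all) and none lower (18.3% of all). Gli2 was 5.26-fold higher in TGFB1_KO than in TGFB1 libraries, by 1.48 on the log2 scale (SE 0.14, limma adjusted p = 2.58e-05). Foxf1 was higher by 0.49 (SE 0.13, limma adjusted p = 0.0137, or 0.0544 without TGFB1 replicate 3), and Ptch1 as given above. This comparison and TGFB1 minus Vehicle share the TGFB1 libraries, so their opposite signs for Gli2 and Foxf1 are not independent. In the interaction 1 of the 6 passed, Gli2, and it was higher, as were 8.38% of all tested genes; 17.6% of all passed and 9.26% were lower.

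**Figure D4:**
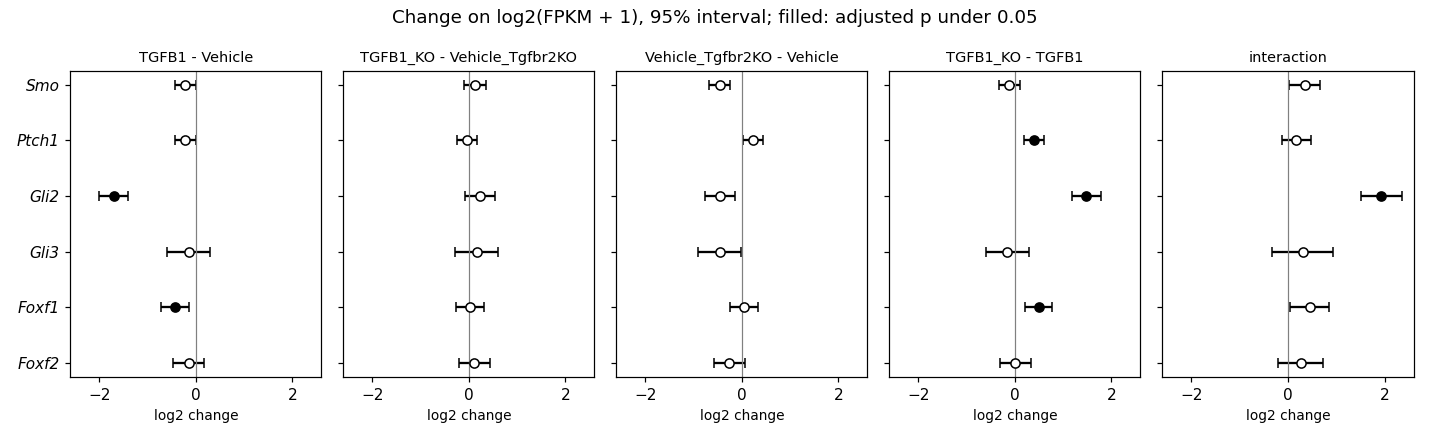
Change on log2(FPKM + 1) (horizontal axes) of the 6 tested genes (rows) in the 5 comparisons, with limma's 95% interval; filled points passed at an adjusted p under 0.05. Gli2 stands apart at -1.70 in TGFB1 minus Vehicle, 1.48 in TGFB1_KO minus TGFB1 and 1.93 in the interaction, while all points in TGFB1_KO minus Vehicle_Tgfbr2KO are open.

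Upstream of the receptor, the ligand genes were near 0: Shh, Ihh and Dhh did not exceed 0.190 FPKM in any library. Of 9 genes for ligands and their release, 3 were tested and 2 passed in TGFB1 minus Vehicle (31.9% of all tested genes), both higher (17.3% of all): Hhat, which attaches palmitate to the ligand, by 0.30 (limma adjusted p = 0.0309) and Disp1, which releases it, by 0.28 (0.0476). The third tested gene, Scube1, a secreted protein that aids release, had a log2 change of -0.42 (limma adjusted p = 0.268). The median was 0.28, beside 0.02 over all tested genes. Both calls were weak. That of Hhat was lost without replicate 2 or 3 of Vehicle or of TGFB1 (limma adjusted p up to 0.103), that of Disp1 without any 1 of the 6 compared libraries or replicate 2 of either knockout group (up to 0.153), and both were lost with equal library sums (0.18 and 0.14, limma adjusted p = 0.186 and 0.252).

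Gas1 had a larger log2 change with TGFB1 than any of the 6 tested genes. It encodes a cell-surface co-receptor that helps Ptch1 bind ligand, and was listed at 9.33, 15.8 and 42.7 FPKM in TGFB1_KO, 5.15, 14.1 and 16.2 in Vehicle_Tgfbr2KO, 1.05, 2.45 and 2.53 in TGFB1 and 17.4, 25.3 and 50.0 FPKM in Vehicle libraries. The 3 TGFB1 libraries were the lowest of all 12. Gas1 fell by 3.31 on the log2 scale in TGFB1 minus Vehicle (SE 0.57, limma adjusted p = 0.00182), rose by 2.75 in TGFB1_KO minus TGFB1 (SE 0.57, 0.00434), and had an interaction of 4.06 (SE 0.81, 0.00770). These 3 calls held without any 1 library.

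Of the 6 reception genes 4 were tested, and 3 were lower in TGFB1 minus Vehicle (14.6% of all tested genes), with a median of -1.89: Gas1, Gpc3 and Cdon. Gpc3, a glypican that competes for ligand, was listed at 0.505, 0.913 and 0.402 FPKM in TGFB1, against 4.48, 8.12 and 23.3 FPKM in Vehicle libraries, without overlap (log2 change -2.74, SE 0.88, limma adjusted p = 0.0365). Cdon, a co-receptor, was listed at 2.83, 3.34 and 2.69 FPKM in TGFB1, against 5.03, 5.92 and 11.7 FPKM in Vehicle libraries, also without overlap (log2 change -1.04, SE 0.36, limma adjusted p = 0.0493). Gpc3 and Cdon averaged 1.86 and 2.95 FPKM in Vehicle_Tgfbr2KO and 5.99 and 4.35 FPKM in TGFB1_KO libraries. Their log2 changes in Vehicle_Tgfbr2KO minus Vehicle, -2.21 and -1.05, did not pass (limma adjusted p = 0.185 and 0.144). Neither gene passed in TGFB1_KO minus TGFB1 (limma adjusted p = 0.278 and 0.554) or in the interaction (0.0748 and 0.0929). The Gpc3 call was lost without Vehicle replicate 2 or 3, any 1 TGFB1 library or Vehicle_Tgfbr2KO replicate 2 (limma adjusted p up to 0.121). That of Cdon was lost in 9 of the 12 cases of 1 library left out, all but Vehicle replicate 1 and TGFB1_KO replicates 1 and 3 (up to 0.163). Boc, another co-receptor, did not pass in TGFB1 minus Vehicle (log2 change -0.20, limma adjusted p = 0.160) but was lower in Vehicle_Tgfbr2KO, at 8.02, 9.12 and 7.35 FPKM, than in Vehicle, at 12.9, 12.4 and 14.5 FPKM (log2 change -0.64, SE 0.10, limma adjusted p = 0.0296). The Boc call between genotypes was lost in 7 of the 12 cases of 1 library left out, namely any 1 Vehicle_Tgfbr2KO library and replicates 1 and 3 of Vehicle and of TGFB1 (up to 0.141).

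Inside the cell, all 26 listed genes of signal transduction and the cilium were tested, 2 passed in TGFB1 minus Vehicle, beside 31.9% of all tested genes, both were lower (14.6% of all), and the median was -0.01. Evc, a ciliary protein that binds Smo, was listed at 5.89, 6.41 and 5.74 FPKM in TGFB1, against 8.17, 9.85 and 8.88 FPKM in Vehicle libraries (log2 change -0.50, SE 0.11, limma adjusted p = 0.00537). Prkaca, a catalytic subunit of protein kinase A, which phosphorylates Gli proteins, was listed at 40.7, 46.4 and 49.0 FPKM in TGFB1, against 54.8, 56.6 and 55.7 FPKM in Vehicle libraries (log2 change -0.29, SE 0.07, limma adjusted p = 0.00759). In neither gene did the groups overlap. Prkacb, another catalytic subunit of that kinase, had log2 changes of 0.18 in TGFB1 minus Vehicle and -0.19 in TGFB1_KO minus TGFB1. Neither of these passed (limma adjusted p = 0.114 and 0.0949). The 2 genes of the list with the highest mean, Csnk1a1 (102 FPKM, a kinase that phosphorylates Gli proteins and Smo) and Spop (68.1 FPKM, which targets Gli proteins for degradation), had log2 changes of -0.08 and 0.09 that did not pass (limma adjusted p = 0.607 and 0.533). In TGFB1_KO minus TGFB1 (33.9% of all tested genes) 1 of the 26, Prkaca, was higher (0.19, SE 0.07, limma adjusted p = 0.0461), a call lost in 10 of the 12 cases of 1 library left out, all but TGFB1 replicate 3 and TGFB1_KO replicate 2 (up to 0.161); its change was 0.12 without TGFB1 replicate 1 and 0.30 with equal library sums. Another 3 were lower: Gsk3b, a kinase of Gli proteins (-0.19, SE 0.05, 0.0221), whose call was lost without replicate 1 or 2 of TGFB1 or replicate 1 or 3 of TGFB1_KO (up to 0.0654) and with equal library sums (-0.08, 0.296), Gpr161, a ciliary receptor that restrains the pathway (log2 change -0.39, SE 0.07, limma adjusted p = 0.00171), and Sufu, which holds Gli proteins inactive (-0.29, SE 0.07, limma adjusted p = 0.0100, or -0.19 and 0.0994 with equal library sums).

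Of 8 target candidates other than the 9 genes, 7 were tested. In TGFB1 minus Vehicle 2 passed as higher and 4 as lower, beside 17.3% and 14.6% of all tested genes, with a median of -0.83. Of the 2 higher, Hsd11b2 was tested only through the TGFB1 group, as given below. Its call had to come out so and adds nothing to the count. Bmp4, a BMP ligand of the gut stroma, was listed at 0.863, 1.34 and 1.53 FPKM in TGFB1, against 20.3, 13.96 and 12.2 FPKM in Vehicle libraries (log2 change -2.86, SE 0.23, limma adjusted p = 1.99e-05). Nkx2-3, a homeobox factor of gut mesenchyme, was listed at 35.9, 31.5 and 28.2 FPKM in TGFB1, against 59.7, 54.9 and 57.2 FPKM in Vehicle libraries (log2 change -0.83, SE 0.10, limma adjusted p = 0.000205). For both genes the groups lie far apart. Ccnd1, cyclin D1, was also lower (-1.27, SE 0.23, 0.00212), as was Mycn, a MYC family factor (-0.84, SE 0.25, 0.0260), although the Mycn call was lost without Vehicle replicate 3, TGFB1 replicate 1 or TGFB1 replicate 3 (limma adjusted p up to 0.0902). With a pseudocount of 0.1 the change of Mycn was -1.55. Between genotypes without TGFB1, Ccnd1 was higher in Vehicle_Tgfbr2KO than in Vehicle libraries (log2 change 1.10, limma adjusted p = 0.0497). That call was lost in 10 of the 12 cases of 1 library left out. Ccnd1 was also higher in TGFB1_KO minus TGFB1 (1.97, limma adjusted p = 9.94e-05). Neither Ccnd1 (0.87, limma adjusted p = 0.0860) nor Mycn (1.02, 0.0704) passed the interaction.

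Hsd11b2, the enzyme that inactivates glucocorticoids, is 1 of the 2 higher genes. It was listed at 0.0661, 0.0847 and 0.0635 FPKM in TGFB1_KO, 0.180, 0.369 and 0.311 in Vehicle_Tgfbr2KO, 1.89, 2.03 and 2.24 in TGFB1 and 0.186, 0.253 and 0.110 FPKM in Vehicle libraries. It reached 1 FPKM in the 3 TGFB1 libraries alone, so it was tested only through the group where it is high and had to differ; its levels are a description. Ccnd2, cyclin D2, was listed at 154, 156 and 154 FPKM in TGFB1, against 120.7, 117 and 101 FPKM in Vehicle libraries (log2 change 0.45, SE 0.10, limma adjusted p = 0.00541). The groups do not overlap, and the 2 D-type cyclins of the list moved in opposite directions. The interaction passed for Bmp4 (3.19, SE 0.33, limma adjusted p = 0.000233), Nkx2-3 (0.98, SE 0.14, 0.00149) and Ccnd2 (-0.49, SE 0.14, 0.0322), the last being lost in 6 of the 12 cases of 1 library left out: Vehicle replicate 3, any TGFB1 library, and Vehicle_Tgfbr2KO replicates 1 and 2 (up to 0.0772).

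Of 31 other forkhead genes 17 were tested, and in TGFB1 minus Vehicle 4 were higher and 2 lower, beside 17.3% and 14.6% of all tested genes, with a median of 0.17. Foxp2 was listed at 0.620, 0.905 and 0.546 FPKM in TGFB1, against 3.01, 2.29 and 3.57 FPKM in Vehicle libraries (log2 change -1.22, SE 0.19, limma adjusted p = 0.000989). Foxm1, a factor of dividing cells, was listed at 8.81, 13.8 and 9.34 FPKM in TGFB1, against 21.2, 26.0 and 16.3 FPKM in Vehicle libraries (log2 change -0.93, SE 0.18, limma adjusted p = 0.00350). Foxp4 was higher, at 32.5, 37.5 and 33.3 FPKM in TGFB1, against 24.4, 24.2 and 27.4 FPKM in Vehicle libraries (log2 change 0.43, SE 0.09, limma adjusted p = 0.00436). None of these 3 overlapped between TGFB1 and Vehicle libraries. With a pseudocount of 0.1 the change of Foxp2 was -1.96 and its interaction 2.89. The other higher genes were Foxs1 (0.89, SE 0.30, limma adjusted p = 0.0452), Foxk1 (0.32, SE 0.07, 0.00482) and Foxp1 (0.22, SE 0.07, 0.0497), and with equal library sums none of the 3 passed (0.80 for Foxs1, 0.19 for Foxk1 and 0.08 for Foxp1, limma adjusted p = 0.0610, 0.0930 and 0.535), which leaves Foxp4. Leaving out 1 library ended the Foxs1 call in 10 of 12 cases, all but TGFB1 replicate 2 and TGFB1_KO replicate 3 (up to 0.161), and the Foxp1 call in 8, all but Vehicle replicate 3, Vehicle_Tgfbr2KO replicate 1 and TGFB1_KO replicates 1 and 3 (up to 0.157). Foxk2, the other forkhead gene with the highest mean (26.2 FPKM), had a log2 change of 0.17 that did not pass (limma adjusted p = 0.230). Foxp2 and Foxp4, paralogs of 1 subfamily, thus moved in opposite directions, and both passed the interaction (1.88, SE 0.27, limma adjusted p = 0.00144, and -0.51, SE 0.12, 0.0182), that of Foxp4 being lost with equal library sums (0.0710). In TGFB1_KO minus Vehicle_Tgfbr2KO no gene of any of the 6 lists passed, the same as for all tested genes.

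**Figure D5:**
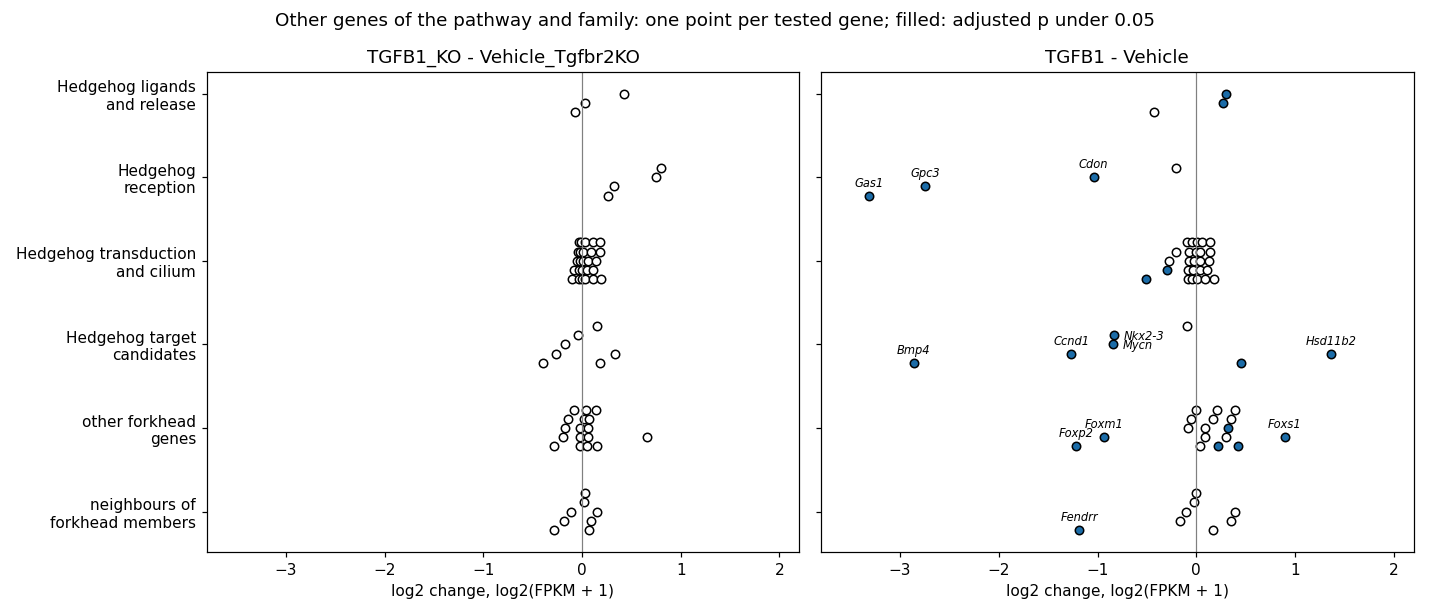
Change on log2(FPKM + 1) (horizontal axes) of every tested gene in 6 lists (rows) in TGFB1_KO minus Vehicle_Tgfbr2KO (left) and TGFB1 minus Vehicle (right); filled points passed at an adjusted p under 0.05. On the left all points are open; on the right Gas1 at -3.31 and Bmp4 at -2.86 lie farthest out, while most of the 26 transduction and cilium genes sit near 0.

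The genes whose pattern over the 12 libraries was most like that of each tested gene were found by Pearson's r on log2(FPKM + 1). Libraries of 1 group share their treatment and, over groups, their replicate numbers, so these are descriptions. Nearest to Gli2 were Spon2, a matrix protein (r = 0.990), Gpc6, a glypican (0.990), and Prickle2, of the planar polarity pathway (0.984). Spon2 averaged 78.8 FPKM in TGFB1_KO, 40.8 in Vehicle_Tgfbr2KO, 3.49 in TGFB1 and 80.4 FPKM in Vehicle libraries, the same low TGFB1 group as in Gli2. Nearest to Foxf1 were Mark1, Lepr and Zxdb (0.958 to 0.959), to Ptch1 C1galt1, Uvrag and Ddit4l (0.961 to 0.968), to Smo Vangl2, Gtf2i and B4galt6 (0.963 to 0.968), and to Gli3 Tmem151b, Magi1 and Gabbr1 (0.961 to 0.967). Foxf2 had no neighbour above 0.888, reached by Dmpk. Among the 6 themselves, Gli3 and Smo (0.900) and Ptch1 and Foxf1 (0.884) ran closest, Gli2 and Foxf1 stood at 0.714, and Gli2 and Gli3 at 0.077.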

How the data were processed

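RNA of 12 mouse libraries was selected for poly-A and primed with random hexamers, per the labels' protocols. The authors' deposited FPKM table has 1 row per symbol (25203 genes, 4702 of them 0 throughout). Kallisto 0.46.1, DESeq2 1.40.1 and build mm9 are named in the submitters' processing notes; how they led to the FPKM values is not given in the sources used here. The deposited values already had equal median ratios between libraries. From them, log2(FPKM + 1) was fitted with limma 3.58.1 (R 4.3.3) to the 4 group means, with 8 residual degrees of freedom and a variance trend. The 12641 genes that reached 1 FPKM in 3 or more libraries were tested, with a threshold of 0.05 on the adjusted p; the median SE of a change was 0.109. Python 3.11.15 made the tables (pandas 2.3.3, numpy 2.4.6) and plots (matplotlib 3.10.9). The fit was also run on simulated data with independent errors in each library, unlike the correlated residuals given below. Nothing here rests on that run. Ratios were compared with exact permutation tests.

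The 9 genes, the gene lists and the tests were chosen with earlier results of these data known. Named genes were drawn, not all of them used, from the 9, Tgfbr2, up to 4 called genes per list and comparison, the 3 of highest mean in a list, and the 3 most alike to each tested gene; Shh, Ihh, Dhh, further neighbours on chromosome 8, marker genes and calls completing a small count are given besides. A listed gene is not reported here. Replicates 1, 2 and 3 carry the same label numbers in all groups. Across genes, residuals about the group mean of libraries with 1 number correlated at 0.391, 0.445 and 0.408 (TGFB1 with Vehicle) and 0.588, 0.227 and 0.529 (TGFB1_KO with Vehicle_Tgfbr2KO). Between genotypes these correlations ran from -0.0867 to 0.412. The fit as reported took no pairs, so its p-values leave out this likeness. A block on the replicate number, over all libraries or within each genotype, was run as an alternative only. The annotation at hand (GRCm38) is of another build than the table, so coordinates are given only for RefSeq promoter windows, in that build. Alternatives were the replicate block, pseudocounts, filters, scalings, only the compared groups, and each library left out.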

Additional observations from a re-analysis of the deposited data

Results flagged for a closer look

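The response of Gli2 to TGFB1 differed between the genotypes by the interaction test: the log2 change in Tgfbr2KO cells (TGFB1_KO minus Vehicle_Tgfbr2KO, 0.23) minus that in cells not labelled knockout (TGFB1 minus Vehicle, -1.70) was 1.93 (SE 0.19, limma adjusted p = 0.000191). Gli2 was the only 1 of the 6 tested genes to pass this test in the fit without a replicate block.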

How the results depend on the processing

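Over 30 changes (6 genes, 5 comparisons) and 642 alternative values, 612 kept direction and side of the threshold, 5 lost and 14 gained a call, and 11, none of them called, changed sign; the causes were not tested. Of 52 calls of list genes, 940 of 1109 alternative values kept the call and 169 lost it, with no change of sign. The 52 include the calls of Hsd11b2, which was tested only through the TGFB1 group, where it is high. Gli2 ran from -2.51 to -1.63 in TGFB1 minus Vehicle and from 1.78 to 2.79 in the interaction, and in TGFB1_KO minus TGFB1 reached 2.24 with a pseudocount of 0.1. Of the 6 genes, those passing in TGFB1 minus Vehicle numbered 2 as reported, 4 with equal FPKM sums and 1 to 3 without 1 library; in Vehicle_Tgfbr2KO minus Vehicle 0 as reported, 2 with the replicate block over all libraries (Smo 0.0110, Gli3 0.0462, limma adjusted p) and 0 to 2 without 1 library; in the interaction 1 as reported and 3 with the replicate block, over all libraries or within each genotype. The block changed no other call of the 6 genes than these and that of Smo in TGFB1 minus Vehicle. Between genotypes the residuals of libraries with 1 number correlated unevenly, at 0.336, -0.0867 and 0.412 (Vehicle_Tgfbr2KO with Vehicle) and 0.337, 0.00945 and 0.276 (TGFB1_KO with TGFB1). Replicate 2 was the lowest in both. Of changes that turned sign, Foxf1 in TGFB1_KO minus Vehicle_Tgfbr2KO was -0.023 with equal FPKM sums and ran from -0.095 to 0.12 without 1 library; Gli3 there ran from -0.034 to 0.32 and Foxf2 from -0.032 to 0.19, Foxf1 in Vehicle_Tgfbr2KO minus Vehicle from -0.045 to 0.14, and Foxf2 in TGFB1_KO minus TGFB1 from -0.087 to 0.078. All genes called in Vehicle_Tgfbr2KO minus Vehicle numbered 157, but 1897 with the block, 71 without the filter, 0 with only the compared groups and 0 to 748 without 1 library. In the interaction they numbered 2230, but 3658 or 3558 with the block over all or within genotypes and 1486 without TGFB1 replicate 1. In TGFB1_KO minus Vehicle_Tgfbr2KO 1 gene passed with a pseudocount of 0.1 or without Vehicle replicate 2. With equal FPKM sums the share of calls that were higher was 29.5% in TGFB1 minus Vehicle (54.2% as deposited), 62.9% in Vehicle_Tgfbr2KO minus Vehicle (42.0%), 64.5% in TGFB1_KO minus TGFB1 (46.1%) and 62.3% in the interaction (47.5%). Unknown read depth limits Gli1, Hhip and Foxl1, for which no difference could be tested.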

Other observations

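The FPKM ratio of Ptch1 over Smo was 0.144 ± 0.0254 in TGFB1_KO, 0.164 ± 0.0262 in Vehicle_Tgfbr2KO, 0.0936 ± 0.00437 in TGFB1 and 0.0979 ± 0.0188 in Vehicle libraries (SD, n = 3 each). All 6 Tgfbr2KO libraries lay above all 6 others. Between genotypes the log2 ratio differed by 0.75 in Vehicle_Tgfbr2KO minus Vehicle and by 0.61 in TGFB1_KO minus TGFB1, each with a two-sided exact permutation p = 0.1, the smallest possible (0.171 adjusted over the 12 ratio tests). With TGFB1 it differed by -0.19 in Tgfbr2KO cells and by -0.05 in the other cells (exact permutation p = 0.5 and 0.9).

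Fendrr over Foxf1, as a ratio of FPKM, was 0.0933, 0.115 and 0.130 in TGFB1_KO, 0.130, 0.127 and 0.113 in Vehicle_Tgfbr2KO, 0.0682, 0.0700 and 0.0583 in TGFB1 and 0.121, 0.137 and 0.135 in Vehicle libraries. The 3 TGFB1 libraries had the lowest ratios of all 12.

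Between genotypes under TGFB1, 8 of the 17 tested other forkhead genes passed in TGFB1_KO minus TGFB1, 2 higher and 6 lower, beside 33.9% of all tested genes, 15.6% higher and 18.3% lower, with a median log2 change of -0.25, beside -0.01 over all tested genes. The call of Foxo4 was lost in 7 of the 12 cases of 1 library left out (Vehicle replicate 1, any TGFB1 library, Vehicle_Tgfbr2KO replicate 1, TGFB1_KO replicates 1 and 2; limma adjusted p up to 0.138) and with equal library sums (0.155), and that of Foxm1 in 4 (TGFB1 replicates 1 and 3, TGFB1_KO replicates 1 and 2; up to 0.103). Foxc1, which lies next to Foxf2, was lower by this test (log2 change -0.66, SE 0.14, limma adjusted p = 0.00539), while Foxf2 was not (0.01, limma adjusted p = 0.984).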
